A study of Mus musculus with 46 samples.

Results

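Expression of the chemokines and their receptors was examined on mRNA arrays of 41 mammary tumors from 8 genetically engineered mouse models and of 5 normal mammary glands. Genes were taken by symbol, as every gene whose annotated symbol opens with Ccl, Cxcl, Cx3cl, Xcl, Ccr, Cxcr, Cx3cr, Xcr or Ackr and a digit, and each was represented by its probe set with the highest mean over the 46 arrays. This gave 41 of the 10470 genes on the table, 29 of them ligands and 12 receptors, and 31 of the 41 (25 ligands and 6 receptors) passed the filter on low values. The basal-type tumors, 17 in all, were C3TAg (C3(1)/SV40 T/t-antigen transgene, FVB, 5 arrays), p53-/- (p53 fl/fl;MMTV-cre transplant, Balb/C, 7 arrays) and Brca1-/-p53+/- (BRCA1 fl/fl;p53+/-;MMTV-cre on a 129B6/FVB background, 5 arrays). The luminal-type tumors, 24 in all, carried a transgene behind the MMTV promoter in FVB mice: MMTV-H2N (Her2/neu, 5 arrays), MMTV-Hras (H-Ras, 5 arrays), MMTV-C-Myc (c-Myc, 4 arrays), MMTV-PymT (polyoma middle T antigen, 6 arrays) and MMTV-Wnt (Wnt1, 4 arrays). The normal glands, labelled FVB pregnant, came from normal FVB mice late in pregnancy. Tumors of a model were from individual mice according to the study's methods. Strain cannot be told apart from model for p53-/- and Brca1-/-p53+/-, and the normal tissue was the gland of pregnancy and not resting gland.

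Chemokines are small secreted proteins that steer white blood cells along concentration gradients through receptors coupled to G proteins, and their names follow the spacing of the first cysteines (CC, CXC, CX3C or XC). In mammary tumors they are made by cancer cells, fibroblasts and recruited leukocytes alike, and they are known for drawing in macrophages, neutrophils and lymphocytes. Atypical receptors (Ackr) bind chemokines without the usual G protein signal and clear or redistribute them. The MMTV promoter, which drives most of the transgenes here, is also active in salivary gland and in lymphoid cells. Since whole tissue was measured, fewer cells of a type and less RNA per cell cannot be told apart.

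Levels are given as log2 GC-RMA values, on which the arrays reached 15.98 and had medians of 6.48 to 7.48, and a gene without signal lies near 2. Genes over 4 in 3 or more arrays were tested, which 9318 of 10470 did. Levels are not compared between genes, because probe sets differ in their affinity. The arrays were epithelial by the mean of a list of 6 mammary epithelial genes, among them Krt8, Krt18 and Epcam. Krt19, also on this list, was near background in MMTV-H2N (mean 2.62) and MMTV-Hras (2.82). The mean level of the list was 10.67 to 13.09 in 43 arrays. It was 5.31 and 7.27 in Brca1-/-p53+/- arrays 4 and 3 and 7.32 in MMTV-Wnt array 3, and these 3 arrays had fibroblast lists of 11.79 to 12.75. A list of 10 salivary secretory genes, drawn up after the data were seen, averaged 13.12, 13.08, 12.48 and 11.69 in MMTV-Hras arrays 1, 2, 3 and 5, 12.89 in MMTV-PymT array 2 and 10.87 in MMTV-Wnt array 2. In the other 40 arrays it lay between 2.29 and 6.59. Where leaving out either set of arrays ended a call named here, the value without them is given beside it. Leaving out the salivary-high arrays leaves 1 MMTV-Hras tumor, so for MMTV-Hras only the difference is given.

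Most of the 31 chemokine and receptor genes varied among the groups, as did most genes. By limma's moderated F test with Benjamini-Hochberg adjustment, 25 of the 31 differed over the 9 groups (83.3% of all genes tested) and 22 over the 8 tumor models (74.5%). The 6 not called over the 9 groups were Ccl2, Ccl7, Ccl25, Ccl28, Cxcl13 and Cxcl15. The map of group means shows Cxcl12 brightest in MMTV-Hras, Cxcl9, Cxcl10 and Cxcl11 in p53-/-, and Ccl9 and Ccl11 in the normal gland. Of the 31, 3 (Ccl9, Cx3cr1 and Cxcl1) were over 4 on all 46 arrays and 14 were over 4 on at least 1 array of each group. None had all its arrays over 4 in 1 group. However, Cxcl11 (over 4 on 7 arrays) and Ackr1 (over 4 on 4) reached that level in 2 groups each. Outside p53-/-, only C3TAg array 5 (4.46) was over 4 for Cxcl11. Outside the normal gland, only Brca1-/-p53+/- array 2 (6.88) was over 4 for Ackr1. Neither gene would have passed without its high group, so those differences are not independent of the filter.

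**Figure D1:**
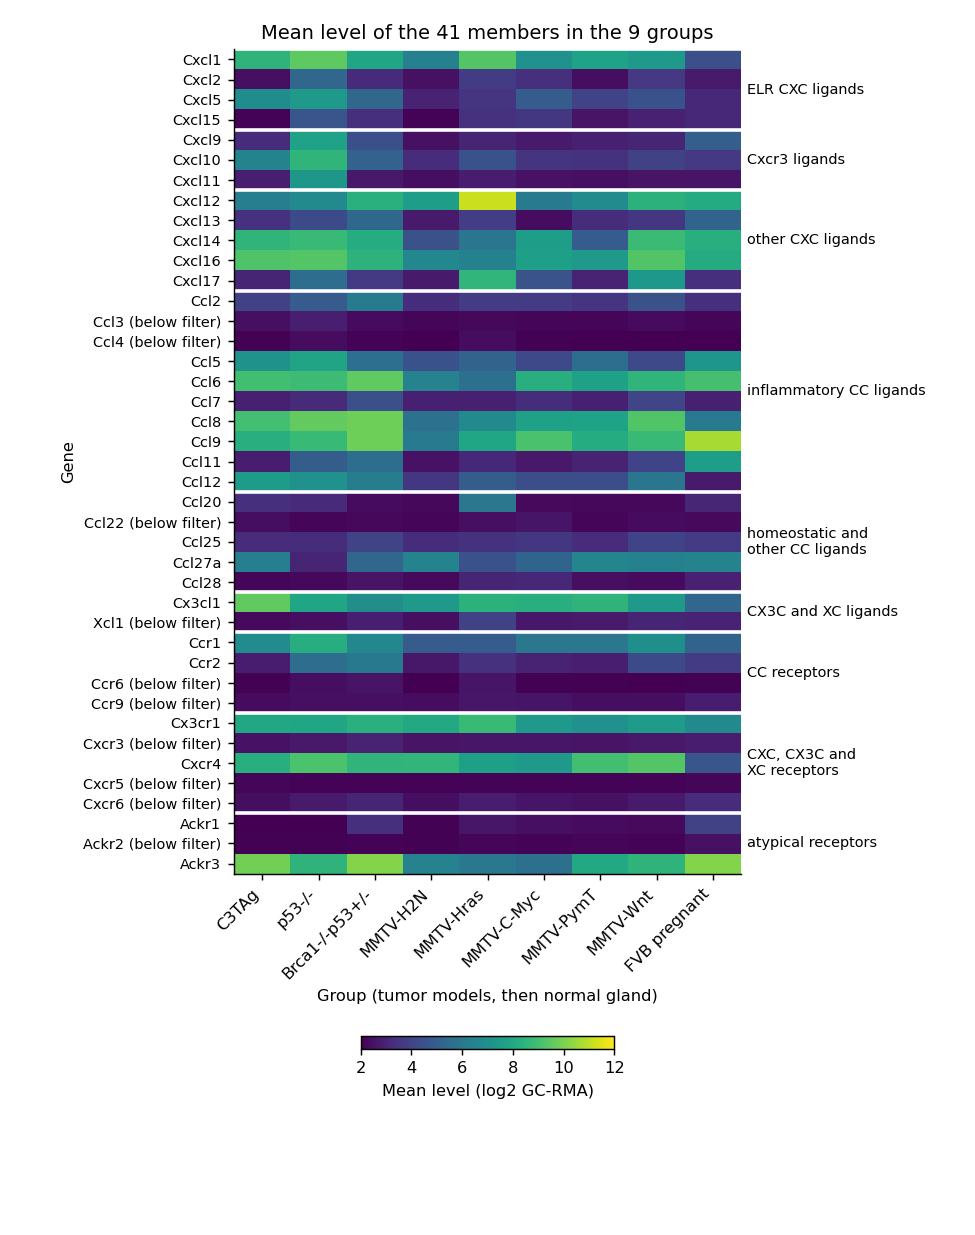
Mean log2 GC-RMA level (colour, 2 to 12) of the 41 chemokine and receptor genes (rows, by role) in the 8 tumor models and the normal gland (columns). Genes that did not pass the filter are marked, and the brightest cell is Cxcl12 in MMTV-Hras, with a mean of 11.2.

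Compared with the normal gland, the tumors as a whole (each model weighted equally) had higher levels of 5 of the 31 genes (24.2% of all genes tested were higher) and lower levels of 5 (17.1%). The higher genes were Cxcr4, Cxcl1, Ccl12, Cx3cl1 and Cx3cr1, and the lower genes were Ccl11, Ccl9, Ackr3, Ackr1 and Ccl27a. The median difference was -0.04 over the 31 genes and 0.20 over all genes tested. Counted as gene and model pairs, of which there were 248, 50 were higher than in normal gland (20% of all pairs) and 30 were lower (14.8%). Against the other 7 models, 26 pairs were higher (10.1%) and 18 were lower (8.29%). The shares of pairs called thus lay near those of all genes.

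Cxcl9, Cxcl10 and Cxcl11 are interferon-induced ligands of Cxcr3, the receptor of activated T cells and natural killer cells, and their genes follow one another in the RefSeq order. Cxcl1 and Cxcl2 are ELR-motif chemokines that attract neutrophils and lie with Cxcl5 and Cxcl15 in another run of neighbours. RefSeq promoters (GRCm38.p6, windows of 300 bases that end just after the start, written 5′ to 3′ on the gene's strand) are shown for 4 of these genes, because both runs had their highest mean in p53-/- tumors. Cxcl9 lies at chr5:92328030-92328329 (minus strand), Cxcl10 at chr5:92348840-92349139 (minus), Cxcl1 at chr5:90890995-90891294 (plus) and Cxcl2 at chr5:90903649-90903948 (plus). Capitals mark matches to the interferon-stimulated response element (ISRE, a pair of TTTC runs with 2 bases of any kind between them), the interferon-gamma activated site (GAS, TTCNNNGAA) or the NF-kappaB motif, searched on both strands.
Cxcl9: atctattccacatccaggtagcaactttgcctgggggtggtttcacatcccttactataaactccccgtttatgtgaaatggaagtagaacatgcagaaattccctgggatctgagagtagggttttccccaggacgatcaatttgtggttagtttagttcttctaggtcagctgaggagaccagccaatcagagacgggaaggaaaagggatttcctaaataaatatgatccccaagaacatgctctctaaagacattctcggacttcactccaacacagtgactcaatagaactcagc
Cxcl10: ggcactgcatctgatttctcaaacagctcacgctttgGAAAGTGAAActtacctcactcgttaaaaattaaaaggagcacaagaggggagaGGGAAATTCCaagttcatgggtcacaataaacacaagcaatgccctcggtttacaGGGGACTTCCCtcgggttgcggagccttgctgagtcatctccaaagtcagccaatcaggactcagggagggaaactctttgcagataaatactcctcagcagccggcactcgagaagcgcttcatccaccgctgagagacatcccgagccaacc
Cxcl1: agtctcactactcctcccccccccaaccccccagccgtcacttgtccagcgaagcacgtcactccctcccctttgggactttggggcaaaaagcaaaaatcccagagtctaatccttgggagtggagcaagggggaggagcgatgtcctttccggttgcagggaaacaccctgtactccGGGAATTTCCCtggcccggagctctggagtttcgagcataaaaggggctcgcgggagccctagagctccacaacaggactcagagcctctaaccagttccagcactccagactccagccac
Cxcl2: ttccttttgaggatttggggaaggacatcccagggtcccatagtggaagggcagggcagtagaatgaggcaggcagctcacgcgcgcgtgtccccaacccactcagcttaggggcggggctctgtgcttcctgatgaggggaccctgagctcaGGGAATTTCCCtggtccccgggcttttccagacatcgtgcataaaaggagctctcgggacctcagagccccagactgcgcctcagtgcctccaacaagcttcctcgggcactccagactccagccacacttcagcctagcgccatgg
The Cxcl10 window held an ISRE match 213 to 204 bases before the start, an NF-kappaB match 159 to 150 bases before it, and an overlapping pair of NF-kappaB matches at 104 to 95 and 103 to 94. Cxcl1 held an overlapping pair of NF-kappaB matches at 71 to 62 and 70 to 61 bases before the start, and Cxcl2 a pair at 97 to 88 and 96 to 87. The Cxcl9 window held no match to these letters. Of the 31 chemokine and receptor genes with a RefSeq promoter, 2 held an ISRE match (3.4% of all 32851 promoters), 2 a GAS match (8.3%) and 9 an NF-kappaB match (8.5%). These matches describe the letters only.

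The Cxcr3 ligands were highest in p53-/- tumors. Cxcl9 in the 7 p53-/- tumors was 4.70 at the lowest, 7.95 at the median and 10.64 at the highest, against 2.11, 2.50 and 7.44 (lowest, median, highest) in the 34 tumors of the other models. Cxcl10 in p53-/- tumors was 6.80 at the lowest, 8.43 at the median and 11.13 at the highest, against 2.64, 3.66 and 9.61 in the other tumors. Cxcl11 in p53-/- tumors was 2.49 at the lowest, 7.82 at the median and 11.27 at the highest, against 2.19, 2.48 and 4.46 elsewhere. For Cxcl9, 4 of 7 p53-/- tumors lay above every other tumor, for Cxcl10 2 of 7 and for Cxcl11 6 of 7. The same p53-/- arrays, 3, 4 and 6, were the 3 highest for each ligand, and array 7 had no signal for Cxcl11 (2.49). In limma, p53-/- exceeded the other models by 4.64 ± 0.65 (SE) for Cxcl9, a 24.9-fold difference (adjusted p = 2.7e-06). The difference was 4.21 ± 0.52 for Cxcl10 (18.5-fold, adjusted p = 2.1e-07) and 4.72 ± 0.51 for Cxcl11 (26.3-fold, adjusted p = 1.42e-08). Cxcl11 passed the filter on low values through p53-/-, and its result belongs to 1 of 2 probe sets. The other, with a mean of 3.21 over all arrays against 3.30, gave 0.15 (adjusted p = 0.775), and the mean of both gave 2.44. Without p53-/- array 6 the Cxcl11 difference was 4.06, and without array 7 it was 5.52.

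Outside p53-/-, the 3 ligands parted. Cxcl10 in C3TAg tumors was 6.30, 4.67, 6.29, 7.12 and 8.12, and it exceeded the other models there by 1.86 ± 0.59 (adjusted p = 0.0158), although the call was lost without C3TAg array 4 (1.71, adjusted p = 0.0538) or array 5 (1.46, adjusted p = 0.0964). Cxcl9 in C3TAg was 2.79, 2.11, 2.72, 2.63 and 6.16, so that a single array was above the others. In Brca1-/-p53+/- tumors Cxcl9 was 2.99, 7.44, 7.04, 2.45 and 2.35 and Cxcl10 was 3.70, 4.00, 9.61, 4.87 and 3.60. Cxcl10 was low in MMTV-H2N, at 3.61, 3.54, 2.64, 2.82 and 3.64, but not only there. Its mean was 3.25 in MMTV-H2N, 3.48 in MMTV-PymT, 3.55 in MMTV-C-Myc and 3.94 in MMTV-Wnt, all under the filter level of 4. The other models had means above 4, up to 8.56 in p53-/-. The MMTV-H2N difference from the other models was -1.85 (adjusted p = 0.0196). That call was lost without array 3 (-1.70, adjusted p = 0.0700) or array 4 (-1.74, adjusted p = 0.0615). Among FVB arrays alone, which hold no p53-/- tumors, the difference was -1.15 (adjusted p = 0.0293). In MMTV-PymT, where Cxcl10 ranged over 3.14 to 3.94, the difference of -1.58 (adjusted p = 0.0405) lost its call when any MMTV-PymT array was left out (-1.52 to -1.68, adjusted p up to 0.0998) and without the salivary-high arrays (-1.57, adjusted p = 0.127). The normal gland had Cxcl9 levels of 5.57, 4.03, 2.74, 5.80 and 6.97 and Cxcl10 levels of 3.97, 3.20, 3.87, 3.57 and 3.60. Relative to it Cxcl9 rose in p53-/- tumors by 2.74 ± 0.92 (adjusted p = 0.0142) and fell in MMTV-H2N tumors (-2.56 ± 0.99, adjusted p = 0.0403), whose arrays read 2.26, 2.48, 2.52, 2.56 and 2.49. The other luminal-type models were lower too, without a call (-2.0 to -2.3).

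**Figure D2:**
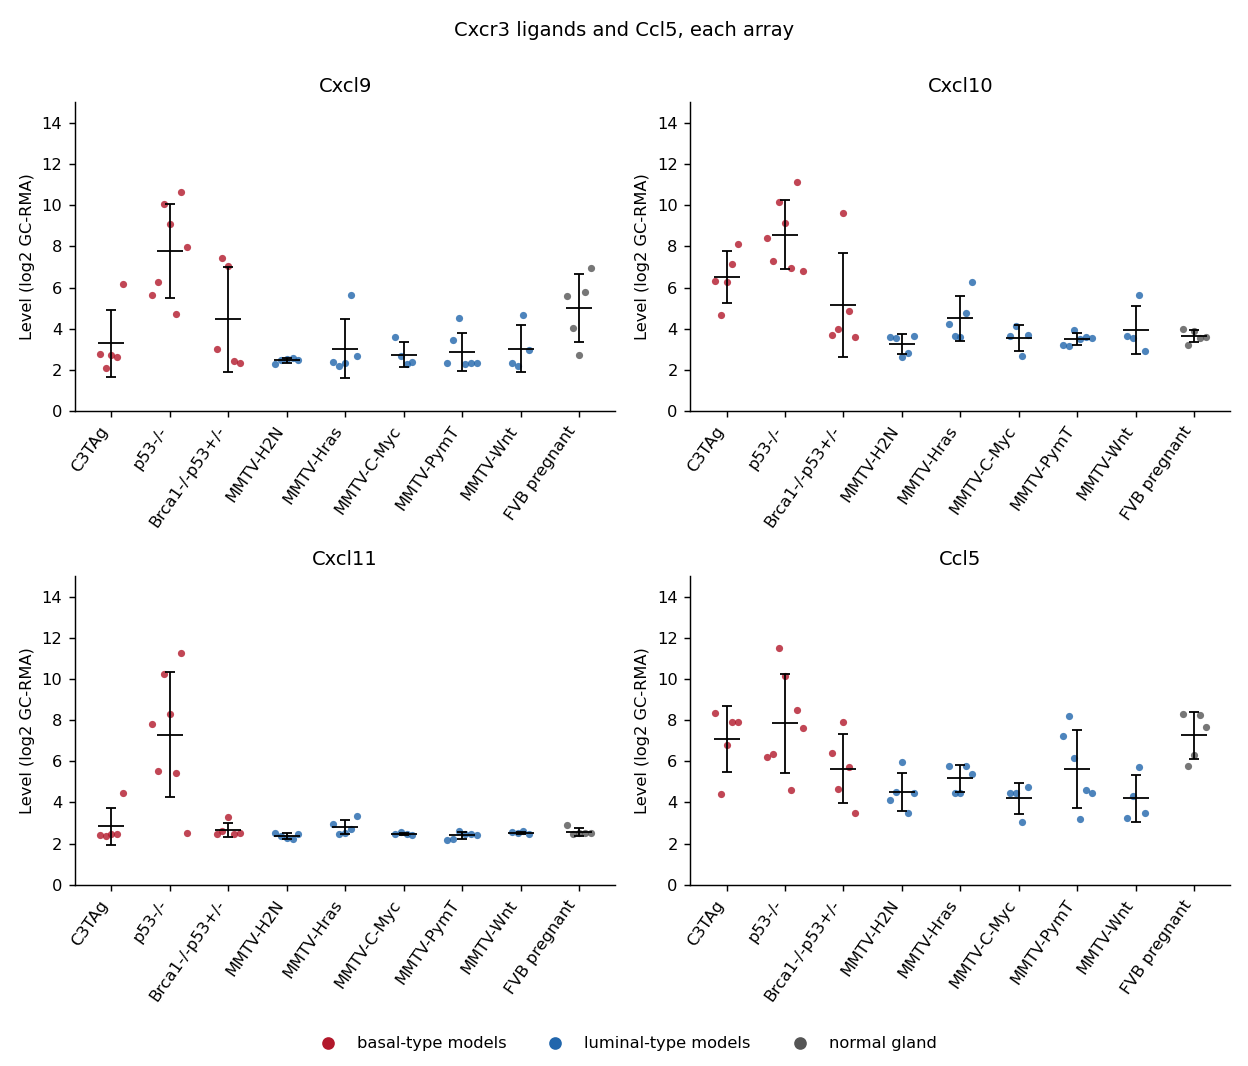
Log2 GC-RMA level of Cxcl9, Cxcl10, Cxcl11 and Ccl5 on each array (points) by group, with the group mean and SD (lines). Of the 7 p53-/- tumors, 6 exceed all other tumors for Cxcl11, while Ccl5 in the normal gland lies at 5.78 to 8.29 and overlaps p53-/-.

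Ccl5, which attracts T cells and monocytes, shared the p53-/- maximum. Its level in p53-/- tumors was 4.62 at the lowest, 7.64 at the median and 11.51 at the highest, against 3.05, 4.62 and 8.34 in the tumors of other models, and 3 of the 7 were above all of those. The difference was 2.64 ± 0.63 (6.23-fold, adjusted p = 0.00292) and 2.03 (adjusted p = 0.0224) without p53-/- array 3. Unlike Cxcl10 and Cxcl11, Ccl5 was also high in the normal gland, at 8.29, 5.78, 6.32, 8.23 and 7.65. The receptor Cxcr3 itself did not pass the filter: it was over 4 on 1 array, Brca1-/-p53+/- array 2 (4.58), with a highest level of 3.23 in p53-/-. None of the 3 tested T cell genes was called in p53-/- against the other models. Of 2 tested natural killer genes, Gzma and Gzmb, 1 was higher there (10.6% of all genes tested), namely Gzma, by 2.02, chosen after its value was seen. Gzmb averaged 2.51 in p53-/-, 3.33 in MMTV-H2N and 3.45 in normal gland. Ncr1, Prf1 and Nkg7, which did not pass the filter, were near background in p53-/- (2.20, 2.13 and 2.38). The mean of Gzma and Gzmb was 3.59 in p53-/-, against 2.18 to 2.83 in the other models and 4.42 in normal gland. This mean was 6.67, 4.17 and 4.40 in p53-/- arrays 3, 4 and 6, which had the most Cxcr3 ligand, and 2.16 to 3.29 in the other 4. The T cell list was 2.47, 2.49 and 2.93 in those 3 arrays. Interferon and NF-kappaB genes that induce chemokines, a list of 20 of which 16 were tested, rose in p53-/- for 7 and fell for 0 (10.6% and 5.7% of all genes tested), with a list median of 0.83 against 0.06 for all genes. Examples chosen after their values were seen are Il1b (3.32), an inflammatory cytokine, and Irf7 (2.66), an interferon regulatory factor. The macrophage list of 18 genes had 2 higher and 0 lower there, a share near the 10.6% of all genes. The part of these cells in the result was not tested.

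Among the ELR chemokines, Cxcl1 was higher in all 8 models than in the normal gland. It was 4.10, 7.94 and 10.91 (lowest, median, highest) over the 41 tumors, against 5.39, 4.26, 4.24, 4.04 and 4.28 in the normal glands, and 40 of 41 tumors exceeded every normal gland. The exception was MMTV-C-Myc array 2. The difference was 3.55 ± 0.55 (11.7-fold, adjusted p = 1.92e-06). Within the models, Cxcl1 reached 7.24 at the lowest, 9.76 at the median and 10.91 at the highest in p53-/- and 9.16, 10.29, 9.94, 7.39 and 9.77 in MMTV-Hras, and it was lowest in MMTV-H2N, at 6.28, 6.59, 6.36, 6.06 and 6.61. MMTV-H2N fell below the other models by 1.84 (adjusted p = 0.0127), and p53-/- exceeded them by 1.75 ± 0.48 (adjusted p = 0.0106). The MMTV-H2N call was lost without the 6 arrays highest in salivary genes (-1.55, adjusted p = 0.0573). The excess in MMTV-Hras, 1.51 ± 0.55 (adjusted p = 0.0422), lost its call without MMTV-Hras array 1, 2, 3 or 5 or MMTV-Wnt array 4 (1.26 to 1.54). Without the salivary-high arrays, which leaves 1 MMTV-Hras tumor, the difference was -0.39.

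Cxcl2 and Cxcl5, which act on the same neutrophil receptors, were also led by p53-/-. Cxcl2 in p53-/- tumors was 2.55 at the lowest, 5.05 at the median and 7.59 at the highest, against 2.11, 2.54 and 7.26 in the other tumors, and 5 of 7 p53-/- tumors were over 4. The difference was 2.25 ± 0.55 (4.76-fold, adjusted p = 0.00384). Cxcl5 in p53-/- tumors was 3.36 at the lowest, 8.07 at the median and 10.75 at the highest, against 2.47, 3.72 and 8.02 in the others, with 4 of the 7 above all of them. It exceeded the other models by 2.80 ± 0.67 (6.96-fold, adjusted p = 0.0031), and by 3.47 without p53-/- array 2. C3TAg tumors had Cxcl5 levels of 7.76, 7.00, 6.37, 6.49 and 6.70, a difference of 2.19 ± 0.77 (adjusted p = 0.0286) that lost its call without C3TAg array 1, 2 or 5 (1.97 to 2.23), without the salivary-high arrays (2.02) and under quantile normalization (1.89, adjusted p = 0.0643) or median centring (1.94). MMTV-H2N tumors read 3.13, 2.73, 2.75, 3.21 and 3.18, and that fall of 2.23 (adjusted p = 0.03) lost its call when any MMTV-H2N array was left out (-2.16 to -2.28, adjusted p up to 0.0758). Of 6 tested neutrophil genes, 2 were higher in p53-/- (10.6% of all genes tested) and 2 lower in MMTV-H2N (9.09%) than in the other models. However, 4 were higher in Brca1-/-p53+/- (6.74%) and 2 in MMTV-PymT (11%), where 0 of the 4 tested ELR ligands were called. The part of these cells in the ligand levels was not tested. Cxcl15, a lung-associated member of the same run, was over 9 in p53-/- arrays 3 and 4 (10.51 and 9.47), while the highest level in any other array was 6.36, and it was not called in the F test.

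MMTV-Hras tumors stood out for 3 ligands. Cxcl12, the ligand of Cxcr4 and Ackr3, was 12.58, 10.91, 12.06, 9.48 and 10.97 in MMTV-Hras, against 3.54, 7.03 and 10.97 in the 36 tumors of other models, and 8.36, 7.43, 8.22, 8.43 and 8.30 in normal gland. Cxcl17, a mucosal chemokine, was 9.76, 11.52, 10.47, 2.86 and 8.28 in MMTV-Hras, against 2.03, 3.35 and 12.20 in the other tumors. Ccl20, the ligand of Ccr6, was 2.76, 7.22, 9.92, 2.24 and 7.62 in MMTV-Hras, against 2.19, 2.24 and 8.82 in the others. Cxcl12 was high in all 5 MMTV-Hras tumors, Cxcl17 in 4 and Ccl20 in 3. The lowest MMTV-Hras level was exceeded by 3 of the 36 other tumors for Cxcl12, 20 for Cxcl17 and 15 for Ccl20. Cxcl17 was also 9.87 and 8.75 in p53-/- arrays 1 and 5 and 12.20 and 8.63 in MMTV-Wnt arrays 2 and 1. The differences from the other models were 4.00 ± 0.80 (16.1-fold, adjusted p = 0.000342) for Cxcl12, 4.32 ± 0.99 (19.9-fold, adjusted p = 0.00155) for Cxcl17 and 3.41 ± 0.80 (10.6-fold, adjusted p = 0.00175) for Ccl20. Leaving out MMTV-Hras array 4 moved these to 5.75 for Cxcl17 and 4.34 for Ccl20, leaving out array 2 gave 3.58 for Cxcl17, and leaving out array 3 or array 1 gave 2.42 or 4.21 for Ccl20.

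The salivary secretory list moved partly with these ligands. All 10 of its tested genes were higher in MMTV-Hras than in the other models (9.64% of all genes). The list was drawn up after the data were seen, so this count carries no weight of its own. MMTV-Hras array 4, with a list mean of 6.57, had Cxcl17 at 2.86 and Ccl20 at 2.24 but Cxcl12 at 9.48. MMTV-Wnt array 2, with 10.87, had Cxcl17 at 12.20, Cxcl12 at 9.91 and Ccl20 at 2.20. MMTV-PymT array 2, with 12.89, had Cxcl17 at 3.51, Cxcl12 at 8.55 and Ccl20 at 2.23. Ccl20 was 7.22, 9.92 and 7.62 in MMTV-Hras arrays 2, 3 and 5 but 2.76 in array 1, which had the highest list mean (13.12). Among arrays low in the list, p53-/- arrays 1 and 5 (2.52 and 3.50) had Cxcl17 at 9.87 and 8.75. Ccl20 was 8.82 in p53-/- array 7 (2.34) and 7.42 in C3TAg array 2 (C3TAg lists up to 2.62). Without the 6 arrays highest in salivary genes, 1 MMTV-Hras tumor is left. The differences were then 2.40 for Cxcl12, -1.16 for Cxcl17 and -0.30 for Ccl20, and 1 tumor cannot show the spread of its model. Relative to the normal gland, where the list ran over 4.51 to 5.57, Cxcl12 in MMTV-Hras was higher by 3.05 ± 1.06 (adjusted p = 0.0269).

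**Figure D3:**
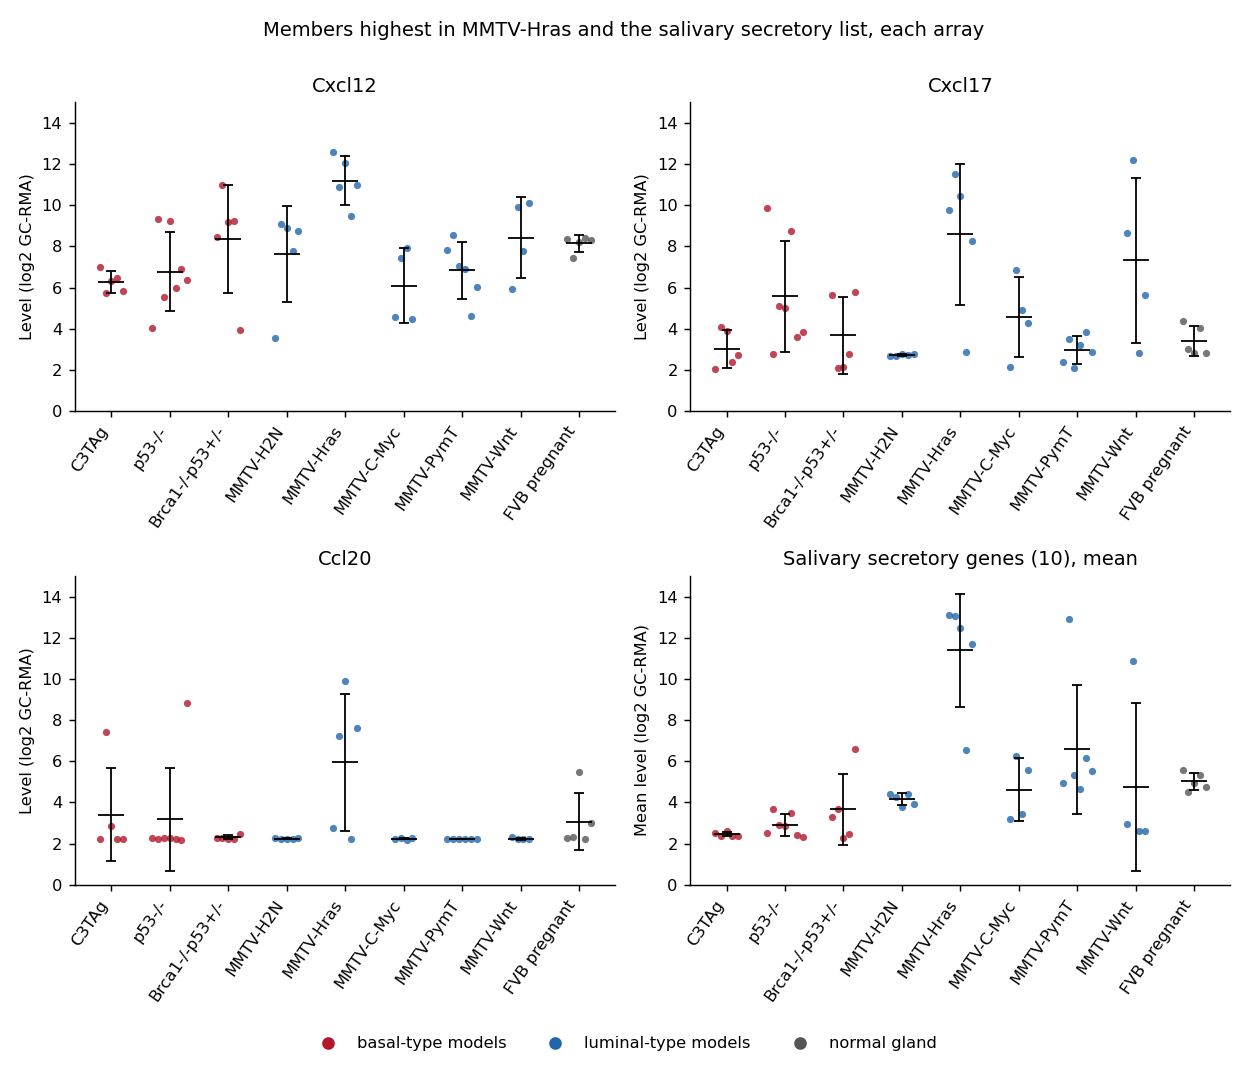
Log2 GC-RMA level of Cxcl12, Cxcl17 and Ccl20 and the mean of 10 salivary secretory genes on each array (points) by group, with the group mean and SD (lines). The salivary panel shows 4 MMTV-Hras arrays, 1 MMTV-PymT array and 1 MMTV-Wnt array above 10 and the other 40 at or below 6.59.

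Cxcl14, an epithelial chemokine, was lowest in MMTV-H2N and MMTV-PymT. MMTV-H2N tumors read 4.70, 4.32, 4.79, 3.76 and 4.79, against 4.01, 7.13 and 10.52 in the other tumors, and MMTV-PymT tumors read 4.01 at the lowest, 4.68 at the median and 6.02 at the highest. Normal glands read 7.98, 8.70, 7.19, 8.69 and 8.76. The differences from the other models were -3.07 ± 0.55 (adjusted p = 7.31e-05) in MMTV-H2N and -2.57 ± 0.51 (adjusted p = 0.000715) in MMTV-PymT. Against normal gland Cxcl14 was lower in MMTV-H2N, MMTV-PymT and MMTV-Hras. Fibroblast genes were lower than in the other models for 8 of 10 in MMTV-H2N (list median -2.25, 9.09% of all genes lower). They were lower for 6 of 10 in MMTV-Hras (list median -2.22, 14.8%) and 4 of 10 in MMTV-PymT (6.9%). Endothelial genes were lower for 6 of 10 in MMTV-PymT (list median -1.87, 6.9% of all genes), and the part of these cells was not tested. In C3TAg tumors Cxcl14 was 8.88, 10.28, 7.15, 9.77 and 6.70, an excess of 1.60 ± 0.55 (adjusted p = 0.0263). That call was lost without array 1, 2 or 4 (1.17 to 1.52) and under quantile normalization (1.34) or median centring (1.35). Cxcl14 was also higher in p53-/- tumors (mean 8.77), by 1.84 ± 0.48 (adjusted p = 0.00678). MMTV-Wnt had the highest mean (8.82), with a difference of 1.90 that was not called (adjusted p = 0.053). Cxcl16, a membrane-bound ligand of Cxcr6, was 6.77, 6.54, 6.53, 3.66 and 8.47 in MMTV-Hras, against 3.40, 8.46 and 10.66 in the other tumors. Its fall of 1.88 there (adjusted p = 0.0227) shrank to 1.20 (adjusted p = 0.18) without MMTV-Hras array 4. Without the salivary-high arrays, which leaves array 4 alone in MMTV-Hras, the difference was -4.57. Cxcl13, the B cell chemokine, reached 8.84 on 1 array of Brca1-/-p53+/- and 9.14 on 1 of normal gland and was not called.

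The CC ligands of monocytes and eosinophils, Ccl2, Ccl7, Ccl8, Ccl11 and Ccl12, form a run of neighbouring genes, but their highest groups differed. Ccl11 (eotaxin) was 2.38, 2.80 and 8.56 (lowest, median, highest) over the 41 tumors, against 8.42, 7.13, 8.02, 7.77 and 6.65 in the normal gland, its highest group. Below every normal gland lay 36 of 41 tumors. Tumors fell by 4.02 relative to normal gland, a 16.3-fold difference (SE 0.66, adjusted p = 4.8e-06), and 7 models were called lower, the exception being Brca1-/-p53+/-. Ccl12 went the other way. It was 2.49, 5.39 and 10.55 over the tumors, against 2.61, 2.67, 2.63, 2.60 and 3.03 in normal gland, where it was at background. The tumors were higher by 2.79 ± 0.88 (6.94-fold on this scale, adjusted p = 0.0101), and 32 of 41 exceeded every normal gland. The highest mean was in C3TAg, whose arrays read 7.10, 7.08, 6.98, 7.34 and 8.89.

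**Figure D4:**
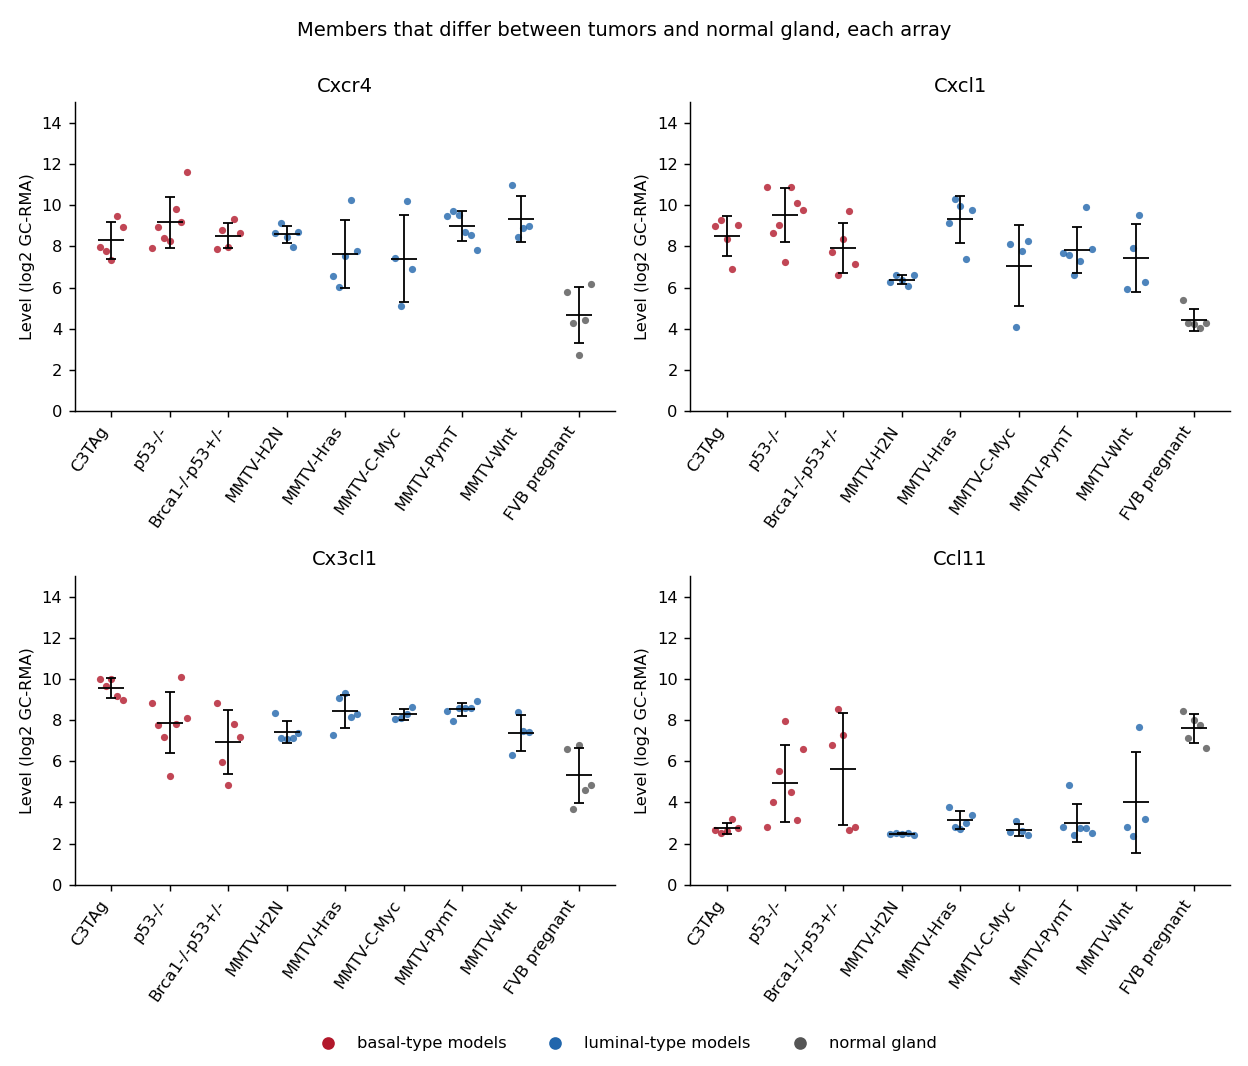
Log2 GC-RMA level of Cxcr4, Cxcl1, Cx3cl1 and Ccl11 on each array (points) by group, with the group mean and SD (lines). Normal glands lie at 2.74 to 6.18 for Cxcr4 and at 6.65 to 8.42 for Ccl11, below and above most tumors.

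Ccl2, the main monocyte attractant, and Ccl7 were high on few arrays. Ccl2 in Brca1-/-p53+/- tumors was 4.33, 3.73, 7.48, 11.67 and 3.37, against 3.29, 3.39 and 8.55 in the other tumors. The difference of 2.16 ± 0.72 (adjusted p = 0.0327) was lost without array 3 (1.82, adjusted p = 0.106) or array 4 (0.77, adjusted p = 0.417), without the salivary-high arrays (2.16, adjusted p = 0.0554) and under quantile normalization (1.93, adjusted p = 0.0622). It was 2.75 without array 2 and 2.85 without array 5. Without the 3 arrays lowest in epithelial genes it was 0.01 (adjusted p = 0.991). Ccl7 was over 5 on 3 arrays, which were those 3: 7.92 and 5.59 in Brca1-/-p53+/- arrays 4 and 3 and 7.78 in MMTV-Wnt array 3. The last also had Ccl2 at 7.78, Ccl11 at 7.65, Ccl12 at 10.46, Ccl6 at 12.24, Ccl9 at 12.58 and Ccr1 at 10.91, and the highest macrophage list of all arrays (11.39). Ccl11 in Brca1-/-p53+/- was 6.79, 8.56, 7.27, 2.66 and 2.81, above the other models by 2.33 ± 0.66 (adjusted p = 0.0127). That call was lost without array 1 (2.04, adjusted p = 0.0587), array 2 (1.60, adjusted p = 0.129) or array 3 (1.92, adjusted p = 0.0612), and the difference was 3.07 without array 4, 3.04 without array 5 and 2.94 without the 3 arrays lowest in epithelial genes.

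Ccl6, Ccl8 and Ccl9, made chiefly by myeloid cells in the mouse, were lowest in MMTV-H2N or MMTV-Hras. Ccl9 was 5.62, 6.00, 5.33, 6.84 and 7.04 in MMTV-H2N, against 5.21, 8.45 and 12.58 in the other tumors and 11.16, 10.13, 10.16, 10.82 and 11.11 in normal gland. It fell in MMTV-H2N by 2.53 relative to the other models (adjusted p = 0.00558), and over all tumors by 2.29 relative to normal gland (4.9-fold, adjusted p = 0.00587), with 35 of 41 tumors below every normal gland. Ccl8 was 4.03, 5.97, 6.62, 6.79 and 5.47 in MMTV-H2N, and its difference of -2.80 (adjusted p = 0.0397) lost its call when any MMTV-H2N array was left out (-2.36 to -3.05, adjusted p up to 0.137), without the 3 arrays lowest in epithelial genes (-2.71, adjusted p = 0.0557) and without the salivary-high arrays (-2.74, adjusted p = 0.0553). Ccl6 was 3.03, 5.66, 5.75, 5.97 and 8.03 in MMTV-Hras. Its difference of -2.65 (adjusted p = 0.0182) was lost without MMTV-Hras array 1 (-1.99, adjusted p = 0.125), and the gene's other probe set gave -0.87 (adjusted p = 0.503). Without the salivary-high arrays, which leaves 1 MMTV-Hras tumor, the difference was -2.43. The macrophage list averaged 7.44 (7.18 to 7.67) in MMTV-H2N, against 7.60 (7.31 to 7.79) in normal gland. In MMTV-H2N 5 of the 18 genes of this list were lower than in the other models (9.09% of all genes). Its part in these differences was not tested.

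Their receptors followed partly different models. Ccr2, the receptor of Ccl2, was 6.09, 5.68, 7.44, 7.41 and 3.67 in Brca1-/-p53+/- tumors, against 2.42, 3.06 and 7.25 in the others. The difference was 2.56 ± 0.41 (5.88-fold, adjusted p = 8.58e-05), 3.15 without array 5 and 1.73 (adjusted p = 0.005) without the 3 arrays lowest in epithelial genes. The 2 other Ccr2 probe sets gave 1.75 (adjusted p = 0.0128) and 1.13 (adjusted p = 0.0108). In p53-/- tumors Ccr2 was 3.70 at the lowest, 5.63 at the median and 7.25 at the highest and higher by 2.02 ± 0.35 (adjusted p = 9.66e-05), but there the other 2 probe sets gave 0.05 and -0.09. Ccr2 was also called lower in 3 models where it lay near background. In MMTV-H2N it was 2.78, 2.42, 2.53, 2.72 and 2.68, a difference of -1.36 ± 0.41 (adjusted p = 0.012) that kept its call without any 1 array. There the other 2 probe sets gave -0.62 and -0.41 and were not called (adjusted p = 0.382 and 0.355), and macrophage genes were lower for 5 of 18 (9.09% of all genes), whose part was not tested. The lower Ccr2 in C3TAg (-1.16, adjusted p = 0.0287; arrays at 2.70, 2.43, 2.82, 3.12 and 2.97) lost its call without C3TAg array 1, 2 or 3 (-1.06 to -1.16) and was -0.67 over the mean of probe sets. That in MMTV-PymT (-1.11, adjusted p = 0.035) lost it without any 1 MMTV-PymT array (-1.07 to -1.17), with replicate number as a block (-1.05, adjusted p = 0.054) and without the salivary-high arrays (-1.21, adjusted p = 0.0735). Ccr1, a receptor of Ccl5 and Ccl9 among others, was 6.88 at the lowest, 8.12 at the median and 9.64 at the highest in p53-/- tumors and exceeded the other models there by 2.21 ± 0.61 (adjusted p = 0.0105).

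Of the homeostatic CC ligands, Ccl27a, an epithelial ligand of Ccr10, was low in p53-/- tumors. It was 2.26 at the lowest, 2.91 at the median and 4.85 at the highest there, against 3.40, 6.20 and 7.75 in the tumors of other models, with 5 of 7 below all of those. It fell by 2.79, a 6.91-fold difference (SE 0.36, adjusted p = 5.35e-07). Excesses in MMTV-PymT (1.25, adjusted p = 0.02) and MMTV-H2N (1.15, adjusted p = 0.0364) were not called among the FVB arrays alone (0.79 and 0.68). The first was also lost without MMTV-PymT array 2 (1.18) or 4 (1.15) or the salivary-high arrays (1.04, adjusted p = 0.147). The second was lost without MMTV-H2N array 2, 3, 4 or 5 (1.02 to 1.19) or the salivary-high arrays (1.02, adjusted p = 0.101). The lower level over all tumors than in normal gland (-1.01 ± 0.41, adjusted p = 0.044) was lost without any of 7 single arrays, to -0.72 (adjusted p = 0.222) without FVB pregnant array 3, and was -0.58 (adjusted p = 0.188) in FVB arrays alone, -0.92 (adjusted p = 0.0549) without the 3 arrays lowest in epithelial genes and -0.90 (adjusted p = 0.102) without the salivary-high arrays. The 7 were MMTV-C-Myc 2 and 3, MMTV-H2N 1, MMTV-Hras 5 and FVB pregnant 1, 2 and 3. Ccl25 and Ccl28, mucosal ligands, were over 4 on few arrays and were not called.

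Cx3cl1, a membrane-tethered chemokine, and its receptor Cx3cr1 were both higher in tumors than in normal gland. Cx3cl1 was 4.87, 8.13 and 10.08 over the tumors, against 6.60, 3.69, 6.80, 4.62 and 4.83 in normal glands, and 37 of 41 tumors exceeded every normal gland. The difference was 2.74 ± 0.47 (6.69-fold, adjusted p = 8.89e-06), and all 8 models were called higher. Over the mean of the 2 Cx3cl1 probe sets the difference was smaller, 1.90 (adjusted p = 0.000193). C3TAg had the highest levels, 10.02, 9.64, 9.99, 9.18 and 8.96, above the other models by 1.73 ± 0.47 (adjusted p = 0.00486). Cx3cr1 was over 6 on every array, and its smaller difference of 1.09 ± 0.36 (adjusted p = 0.0132) was lost without FVB pregnant array 2 (0.98, adjusted p = 0.0523) or 3 (0.99, adjusted p = 0.0511), while its other probe set gave 0.54. Within the models Cx3cr1 was higher in MMTV-Hras (0.98, adjusted p = 0.0422), where the other probe set gave -0.50. That call was lost without MMTV-Hras array 2, 3 or 5 (0.74 to 0.91). Without the salivary-high arrays, which leaves 1 MMTV-Hras tumor, the difference was -0.14. In MMTV-PymT it was lower (-0.92, adjusted p = 0.0495), a call lost without any 1 of 32 arrays (-0.84 to -0.99), without the 3 arrays lowest in epithelial genes (-0.73, adjusted p = 0.063) and without the salivary-high arrays (-0.85, adjusted p = 0.151).

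Cxcr4, the receptor of Cxcl12, had the largest increase over normal gland among the 31 genes. It was 5.11, 8.63 and 11.60 over the tumors, against 5.76, 4.26, 2.74, 4.44 and 6.18 in the normal glands, and 39 of 41 tumors exceeded every normal gland. The difference was 3.81 ± 0.55 (14-fold, adjusted p = 5.57e-07), and all 8 models were called higher. Its group means ran over 7.41 ± 2.12 in MMTV-C-Myc to 9.32 ± 1.12 in MMTV-Wnt (SD, n = 4 each), and no model was called against the others. Cxcl12 itself did not pass the test over all tumors (-0.45 ± 0.79, adjusted p = 0.675). In MMTV-Hras, where Cxcl12 was highest, Cxcr4 was 6.54, 6.03, 7.53, 10.27 and 7.77.

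Ackr3, the atypical receptor of Cxcl12 and Cxcl11, varied widely among the models and was high in normal gland. Tumors read 3.87, 7.74 and 11.71 (lowest, median, highest), against 10.11, 11.11, 10.82, 10.33 and 8.40 in the normal glands, and were lower (-2.25 ± 0.62, 4.75-fold, adjusted p = 0.00323). Brca1-/-p53+/- tumors read 9.08, 10.14, 11.46, 11.71 and 8.37 and C3TAg tumors 10.11, 11.51, 10.86, 8.71 and 8.14, levels that overlapped the normal gland. Against the other models Ackr3 was higher by 2.57 ± 0.62 in Brca1-/-p53+/- (adjusted p = 0.00415) and by 2.24 ± 0.62 in C3TAg (adjusted p = 0.00565). Without the 3 arrays lowest in epithelial genes the Brca1-/-p53+/- difference was 1.69 (adjusted p = 0.116). Ackr3 was lower in MMTV-C-Myc, at 4.93, 7.13, 6.87 and 3.87 (-2.52, adjusted p = 0.0142), and in MMTV-Hras, at 7.11, 6.55, 5.39, 4.14 and 6.88 (-2.16, adjusted p = 0.00979). The first call was lost without MMTV-C-Myc array 1 (-2.26, adjusted p = 0.0673) or 4 (-1.91, adjusted p = 0.142), and the second without MMTV-Hras array 4 (-1.69, adjusted p = 0.0655). Without the salivary-high arrays, which leaves 1 MMTV-Hras tumor, the MMTV-Hras difference was -4.00. Ackr3 was also lower in MMTV-H2N, at 5.91, 6.51, 5.92, 6.88 and 6.89 (-1.70, adjusted p = 0.0414). That call was lost without any 1 MMTV-H2N array (-1.57 to -1.81, adjusted p up to 0.113), without MMTV-C-Myc array 3 (-1.64, adjusted p = 0.0502) and without the epithelial-low (-1.48) or salivary-high arrays (-1.39). Ackr1, the Duffy receptor of venular endothelium and red cells, was over 4 in 1 tumor, Brca1-/-p53+/- array 2 (6.88), and was 6.04, 2.51, 4.20, 4.81 and 2.17 in normal gland. Ackr1 passed the filter through the normal gland, and its difference of -1.56 (adjusted p = 0.00368) was lost without FVB pregnant array 1 (-1.04, adjusted p = 0.0666). Of 10 endothelial genes, 3 were lower in tumors and 0 higher (list median -0.98), with Tek at -3.48 (limma adjusted p = 2.81e-09) and Cldn5 at -2.87 (adjusted p = 4.09e-06), where 17.1% of all genes were lower, and their part was not tested.

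The 10 genes that did not pass the filter were Ccl3, Ccl4, Ccl22, Xcl1, Ccr6, Ccr9, Cxcr3, Cxcr5, Cxcr6 and Ackr2. Among them Xcl1, a lymphocyte-derived chemokine, reached 6.02 and 4.94 in MMTV-Hras arrays 1 and 4, and Ccl3, a macrophage chemokine, reached 5.22 in p53-/- array 1. Ccr6, the receptor of Ccl20, reached 4.63 in MMTV-Hras array 1 and 4.43 in Brca1-/-p53+/- array 1. The lymphocyte receptors Cxcr5 and Cxcr6 stayed at or below 2.30 and 3.93.

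By model, p53-/- had the most calls against the other 7 models. In p53-/- 10 of the 31 genes were higher (10.6% of all genes tested) and 1 was lower (5.7%). In C3TAg 5 were higher (19.5%) and 1 lower (9.43%), in Brca1-/-p53+/- 4 were higher (6.74%) and 0 lower (11.9%), and in MMTV-Hras 5 were higher (9.64%) and 3 lower (14.8%). MMTV-H2N had 1 higher (16.1%) and 8 lower (9.09%), and MMTV-PymT had 1 higher (11%) and 4 lower (6.9%). MMTV-C-Myc had 0 higher (4.79%) and 1 lower (4.81%), with 0 and 4 at an unadjusted p under 0.05. In MMTV-Wnt limma called 0 higher (2.64%) and 0 lower (3.7%), with 4 and 0 at an unadjusted p under 0.05 and a lowest adjusted p of 0.053. The median difference of the 31 genes was 0.99 in p53-/- and -1.17 in MMTV-H2N, against medians over all genes tested of 0.06 and 0.01. Without the 3 arrays lowest in epithelial genes, 14 of 30 tested genes were higher in p53-/- and 3 in Brca1-/-p53+/-. Without the 6 arrays highest in salivary genes, 5 were lower in MMTV-H2N and 1 was lower in MMTV-PymT. That setting leaves 1 MMTV-Hras tumor, too few to count calls in that model.

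Basal-type tumors differed from luminal-type tumors in 15 of the 31 genes, of which 14 were higher (16% of all genes tested) and 1 was lower (12%). The median difference was 1.16 over the 31 genes and 0.06 over all genes. Cxcl10 was 3.60, 6.95 and 11.13 (lowest, median, highest) in the 17 basal-type tumors, against 2.64, 3.61 and 6.28 in the 24 luminal-type tumors, and 12 of 17 exceeded every luminal-type tumor. Cxcl5 was 3.15, 6.58 and 10.75 in basal-type tumors, against 2.47, 3.37 and 8.02 in luminal-type tumors. Cxcl9 was 2.11, 5.63 and 10.64 in basal-type tumors, against 2.18, 2.42 and 5.62. Each of these overlapped between the classes. The differences were 3.21 ± 0.49 for Cxcl10 (adjusted p = 1.61e-05), 2.68 ± 0.55 for Cxcl5 (adjusted p = 0.000531), 2.65 ± 0.61 for Cxcl9 (adjusted p = 0.0015), 2.42 ± 0.50 for Ackr3 (adjusted p = 0.000493), 2.41 ± 0.52 for Cxcl14 (adjusted p = 0.00086) and 2.31 ± 0.61 for Ccl12 (adjusted p = 0.00484). Cxcl11 was higher by 2.12 ± 0.59 (adjusted p = 0.0072), but its other probe set gave -0.09 (adjusted p = 0.813) and the mean of both gave 1.01. The remaining higher genes were Ccl5 (2.15), Ccl8 (2.09), Ccl6 (1.84, and 1.55 with adjusted p = 0.0617 without the salivary-high arrays), Ccr2 (1.74), Ccr1 (1.65), Cxcl16 (1.65) and Ccl11 (1.45).

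**Figure D5:**
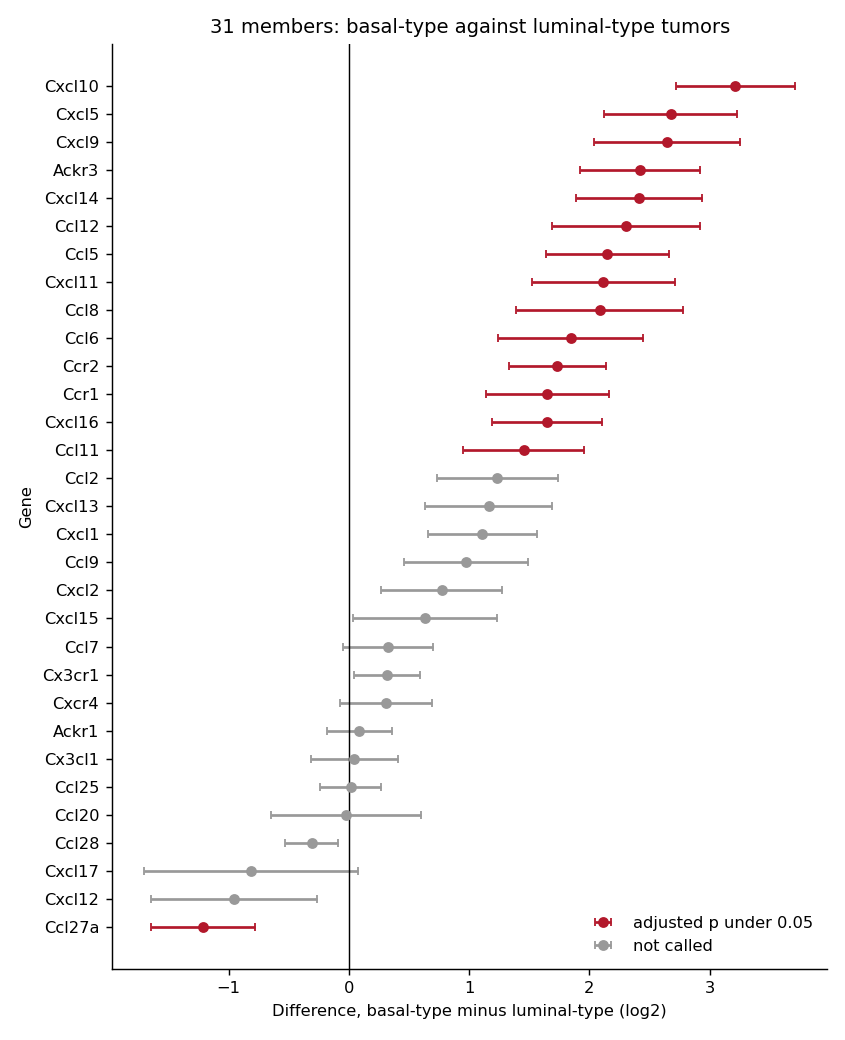
Log2 difference (points) with its SE (bars) between basal-type and luminal-type tumors for the 31 chemokine and receptor genes that passed the filter, positive where basal-type is higher. Red marks an adjusted p under 0.05, which 15 genes had, 14 of them to the right of 0.

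The class calls changed with the arrays used and with the unit counted. With model as a random block (within-model correlation 0.314), 0 genes were called higher and 0 lower, 10 and 0 had an unadjusted p under 0.05, and the lowest adjusted p was 0.0528, for Cxcl10. Among FVB arrays alone, where C3TAg is the only basal-type model, 7 were higher and 0 lower. There the difference was 0.46 for Cxcl9 (adjusted p = 0.519) and turned to -0.29 for Ccl11, 0.42 for Ccl27a and -0.11 for Cxcr4. Ccl27a (-1.21, adjusted p = 0.031) lost its call without p53-/- array 1, 2, 3, 5 or 6 (-1.06 to -1.11). Ccl11 (adjusted p = 0.0264) lost it without p53-/- array 4 (1.24, adjusted p = 0.0524) or Brca1-/-p53+/- array 3 (1.28, adjusted p = 0.0515). Without the 3 arrays lowest in epithelial genes, 15 of 30 tested genes were higher and 1 was lower. Basal-type tumors also had 8 of 10 fibroblast genes and 8 of 16 inducers of chemokines higher, with 0 of each lower (16% and 12% of all genes). Of 18 macrophage genes 4 were higher, nearer to that background, and the part of these cells was not tested.

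Genes that work with the chemokines are set beside the 24.2% of all genes that were higher and the 17.1% that were lower in tumors than in normal gland. Of 26 tested genes of chemokine receptor signalling (G protein subunits, phosphoinositide kinases, Rac regulators and RGS proteins that shut the signal off), 9 were higher and 4 lower. The largest increases were Pik3cg, the kinase of leukocyte chemotaxis (2.55), Elmo1 (2.41) and Tiam1 (2.04), both activators of Rac, and the largest decreases were the G protein subunit Gnai1 (-5.87), Rgs18 (-2.54) and Rgs16 (-2.18). The increases were uneven among the models. Pik3cg and Elmo1 had their highest means in MMTV-H2N (8.36 and 10.66). Mean Pik3cg was 2.91 in C3TAg and 2.85 in MMTV-C-Myc, against 2.58 in normal gland. Of 16 inducers of chemokines, 5 were higher and 0 lower, led by Ptgs2 (3.08), a prostaglandin synthase, Irf8 (2.41) and Il1b (1.63). Of 5 chemoattractants and related genes with other names, 0 were higher and 2 lower, namely Ppbp, a platelet ELR chemokine (-4.08, adjusted p = 1.09e-07), and Rarres2, the chemerin precursor (-2.44). The cell lists differed as well. Adipocyte genes were lower in tumors for 7 of 7, with a list mean of 11.37 (10.98 to 12.17) in normal gland, and secretory epithelium genes for 5 of 5. Fibroblast genes were lower for 3 of 10 and higher for 0, endothelial genes were lower for 3 of 10 and higher for 0, and macrophage genes were higher for 7 of 18 and lower for 1. Whether these cells account for the lower Ccl11, Ccl9, Ackr3 and Ackr1 or the higher Ccl12 of the tumors was not tested.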

How the data were processed

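RNA of 46 samples was hybridised to mouse expression arrays, 1 array per sample. Per the labels and methods, the authors read the arrays with GCOS, kept probe sets by MAS5 present or marginal calls and normalized them by GC-RMA in Partek, and the deposited table holds log2 values of 18586 probe sets, 0 of them missing. Versions of those tools are not given in the sources used here. Gene names came from the platform annotation: 16962 probe sets had 1 gene, 569 several (never named) and 1055 none, and 16941 of them matched RefSeq symbols (GRCm38.p6). The file's genome build is not named, so no probe coordinates are given. No array pair held identical values, and 0 sample columns were left unused.

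Groups came from the sample titles. Each gene was taken at its probe set with the highest mean, and genes over a log2 level of 4 in 3 arrays were kept. Fits over the 9 groups were made in limma 3.58.1 (statmod 1.5.0, R 4.3.3), with Benjamini-Hochberg adjustment over all 9318 genes and a threshold of 0.05, and every adjusted p is from limma unless stated. The means of models were weighted equally in the contrast of tumors with normal gland and in those of a model with the other models. The class contrast was fitted on the 41 tumors as pooled classes, so models with more arrays weighed more. Scripts were tested on simulated data. Figures used Python 3.11.15, pandas 2.3.3 and matplotlib 3.10.9. The 14 genes with the widest span of group means, up to 6 called genes per direction in each contrast and up to 3 per direction in the other lists are named. Members and lists were chosen with earlier results of these data known, and the salivary list and the 3 sets of arrays left out together were added after seeing the data. Alternatives were other scalings, filters, probe set rules, variance models, a replicate block, FVB arrays alone, model as a random block and each array left out.

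Array data have no read depth, and 4 to 7 arrays per group limit the precision. Levels near 2 are background, so a fold change of a low gene is understated.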

Additional observations from a re-analysis of the deposited data

Results flagged for a closer look

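In 16 of 126 sets of 1 gene in 1 group, a single array stood apart from the rest by more than Dixon's 95% limit. For normally distributed values chance gives this in about 1 of 20 groups. Several of these sets lay near background, where values are compressed and that rate need not hold. Among Cxcr3 ligands, Cxcl10 was 9.61 in Brca1-/-p53+/- array 3, against 3.60 to 4.87 in the other arrays of that model. Cxcl9 was 6.16 in C3TAg array 5 (others 2.11 to 2.79), 5.62 in MMTV-Hras array 4 (others 2.20 to 2.66) and 2.26 in MMTV-H2N array 1 (others 2.48 to 2.56). Cxcl11 was 4.46 in C3TAg array 5 (others 2.37 to 2.48), 3.29 in Brca1-/-p53+/- array 3 (others 2.47 to 2.59) and 2.90 in FVB pregnant array 1 (others 2.48 to 2.49). C3TAg array 5 was also highest for Ccl12, at 8.89 (others 6.98 to 7.34), so that it stood apart for 3 ligands.

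Ccl11 was 7.65 in MMTV-Wnt array 3 (others 2.38 to 3.18) and 4.87 in MMTV-PymT array 2 (others 2.42 to 2.80). Cxcl12 was 3.54 in MMTV-H2N array 1 (others 7.76 to 9.09), the array where Cx3cl1 was 8.36 (others 7.10 to 7.38), and 7.43 in FVB pregnant array 2 (others 8.22 to 8.43). Cxcl1 was 4.10 in MMTV-C-Myc array 2 (others 7.79 to 8.26) and 5.39 in FVB pregnant array 1 (others 4.04 to 4.28). Ccl12 was 3.03 in FVB pregnant array 5 (others 2.60 to 2.67).

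Cxcl9 was called in opposite directions against normal gland in a pair of models. Its level in p53-/- exceeded that in MMTV-H2N by 5.30 ± 0.92 (SE, limma adjusted p = 3.4e-05), with 2.74 for p53-/- and -2.56 for MMTV-H2N relative to the normal gland. The fall was not particular to MMTV-H2N. Lower but not called were MMTV-C-Myc (-2.3), MMTV-PymT (-2.1), MMTV-Hras (-2.0), MMTV-Wnt (-2.0), C3TAg (-1.7) and Brca1-/-p53+/- (-0.6).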

How the results depend on the processing

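Between 4 and 7 arrays per group, the strain of 2 models and levels near background limit these results. Of 57 called differences of named genes, 20 kept their call under all settings run. Numbers of genes called stayed within 1.5 times the main number except as follows. FVB arrays alone gave 30 gene and model pairs higher than normal gland, 15 higher than the other models, and 7 genes higher and 0 lower in basal-type tumors, over fewer models (29 pairs of the same 6 models were higher in the full fit). With model as a random block, 0 and 0 genes differed between the classes. Without the 6 arrays highest in salivary genes, 9 pairs were lower than in the other models.

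Leaving out 1 array at a time gave 24 to 26 genes over the 9 groups and 20 to 24 over the 8 models, 4 to 6 higher and 3 to 6 lower in tumors (3 without FVB pregnant array 1), 38 to 53 pairs higher and 21 to 35 lower than normal gland, 24 to 34 higher and 13 to 23 lower than the other models, and 13 to 17 genes higher and 0 to 1 lower in basal-type tumors (0 without p53-/- array 1, 2, 3, 5 or 6). The replicate numbers did not pair the arrays (mean correlation of deviations 0.014 for equal numbers and -0.003 for others, and 7 of 46 arrays correlated best with their own number). With the replicate number as a block, 25 and 23 genes varied, 5 and 5 differed in tumors, 48 and 29 pairs differed from normal gland, 26 and 18 from the other models, and 14 and 1 genes between classes, and 1 named call was lost, Ccr2 in MMTV-PymT.

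The class difference of Cx3cl1, 0.05 and not called, turned to -0.016 under quantile normalization, -0.045 under median centring and -0.097 over the mean of probe sets, and ran over -0.079 to 0.247 without single arrays. FVB arrays alone turned the class difference of Ccl11 (-0.29), Ccl27a (0.42) and Cxcr4 (-0.11). Without the 6 salivary-high arrays, the class difference of Cxcl17, -0.81 and not called, was 0.59, and in MMTV-Hras those of Cxcl17 (-1.16), Ccl20 (-0.30), Cxcl1 (-0.39) and Cx3cr1 (-0.14) turned. The cause of these turns was not tested.

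The median of all genes between tumors and normal gland was 0.20 as deposited, 0.11 after quantile normalization and -0.01 after centring. The share of higher among all calls, as deposited, quantile normalized and centred, was 58.6%, 52.4% and 45.4% for tumors, 57%, 47.7% and 45.8% for basal-type tumors, 67.4%, 54.3% and 45.6% for C3TAg, 65%, 47.6% and 41% for p53-/-, 36.2%, 48% and 62.5% for Brca1-/-p53+/-, 63.9%, 55.1% and 45.8% for MMTV-H2N, 39.4%, 52.3% and 59.6% for MMTV-Hras, 49.9%, 61.3% and 66.5% for MMTV-C-Myc, 61.4%, 53.9% and 46.2% for MMTV-PymT and 41.6%, 48.7% and 56.2% for MMTV-Wnt.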
